A study of Mus musculus with 12 samples.

Results

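The CLK and SRPK kinases are the enzymes that phosphorylate SR proteins, the serine- and arginine-rich proteins that help the spliceosome find exons. The 6 genes described here are Clk1, Clk2, Clk3, Clk4, Srpk1 and Srpk2, out of 57010 genes measured in the series. They were selected on these same data, because Clk1 and Clk4 had stood out among the transcripts lower in selenium-fed mice, so their group differences are given as a description, without a p-value. All 6 passed the filter on low values that left 9980 genes for testing.

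Livers came from male C57BL/6J mice, a wild-type inbred strain, that were 6 weeks old and had 7 days to settle in before they were divided at random. The selenium group received selenium-enriched Aspergillus oryzae A02, a food fungus that had taken up selenium, suspended in saline and given by daily gavage at 0.5 mg selenium per kg. The control group is labelled as untreated, and the labels do not say whether it was gavaged. Both groups ate a normal diet, and the fungus and its selenium were given together, so the effect of selenium cannot be told apart from that of the fungus. The design text gives 8 weeks of feeding. The sample descriptions give 14 weeks, without stating whether this is an age. The protocol names 10 mice in a group, of which 6 livers in the selenium group and 6 in the control group were analysed here, each as a separate library.

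Expression was deposited as TPM, a measure of transcript abundance that is corrected for transcript length and scaled to 1 total in every library, so levels can be compared between genes but the sequencing depth behind a value is unknown. The samples carry a hepatocyte label beside a liver one. Summed hepatocyte markers ranged over 25566–38556 TPM in selenium livers and 26751–43659 TPM in control livers, and markers of Kupffer cells, endothelium, stellate cells, bile ducts and blood were also detected, so the values are read as whole liver. In such bulk tissue, fewer cells of a type and less RNA per cell cannot be told apart. Any 2 libraries correlated at 0.935 to 0.986 on the log2 scale over all tested genes.

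CLK kinases sit in the nucleus and phosphorylate serine, threonine and tyrosine, and their full phosphorylation of SR proteins releases these from nuclear speckles, the stores of splicing factors. SRPK kinases work largely in the cytoplasm, where they phosphorylate SR proteins on serines next to arginines and so allow their import into the nucleus. In mammalian cells CLK1 and CLK4 transcripts are also spliced to forms that keep introns, which stay in the nucleus and can be spliced on demand. In mouse liver, CLK2 is known as an insulin-responsive kinase that acts on the coactivator PGC-1alpha.

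Clk1 and Clk4 were the members that differed most between the groups, while Clk2, Clk3 and Srpk2 were lower by much less and Srpk1 had nearly the same mean in both. Clk1 averaged 45.0% and Clk4 52.3% of the control mean. Clk3 averaged 84.9%, Srpk2 74.5% and Clk2 73.3% of it.

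Clk1 (ENSMUSG00000026034), which encodes the best studied nuclear SR protein kinase of the family, stood at 14.52, 9.69, 15.21, 11.71, 11.34 and 15.99 TPM in selenium livers 1 to 6. In control livers 1 to 6 it stood at 29.92, 39.21, 29.17, 31.73, 21.77 and 22.46 TPM. The groups were apart, with the highest selenium liver below control livers 5 and 6, the lowest of their group. The mean level was 13.1 ± 2.51 TPM in selenium livers and 29.0 ± 6.44 TPM in control livers (SD, n = 6 each). The log2 change, selenium minus control on the log2(TPM + 1) scale, was -1.09 (SE 0.16), which ranked 51 from the lowest among the 9980 genes.

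Clk4 (ENSMUSG00000020385) encodes the closest relative of CLK1. Its level was 11.39, 6.13, 7.76, 8.31, 7.71 and 9.33 TPM in selenium livers 1 to 6. Its level was 14.78, 19.65, 12.89, 20.76, 13.88 and 14.86 TPM in control livers 1 to 6. Again no selenium liver reached the lowest control liver, and control livers 2 and 4 were the highest. Means were 8.44 ± 1.78 TPM in selenium livers and 16.1 ± 3.25 TPM in control livers (SD, n = 6 each), with a log2 change of -0.86 (SE 0.15), at rank 105 from the lowest.

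**Figure D1:**
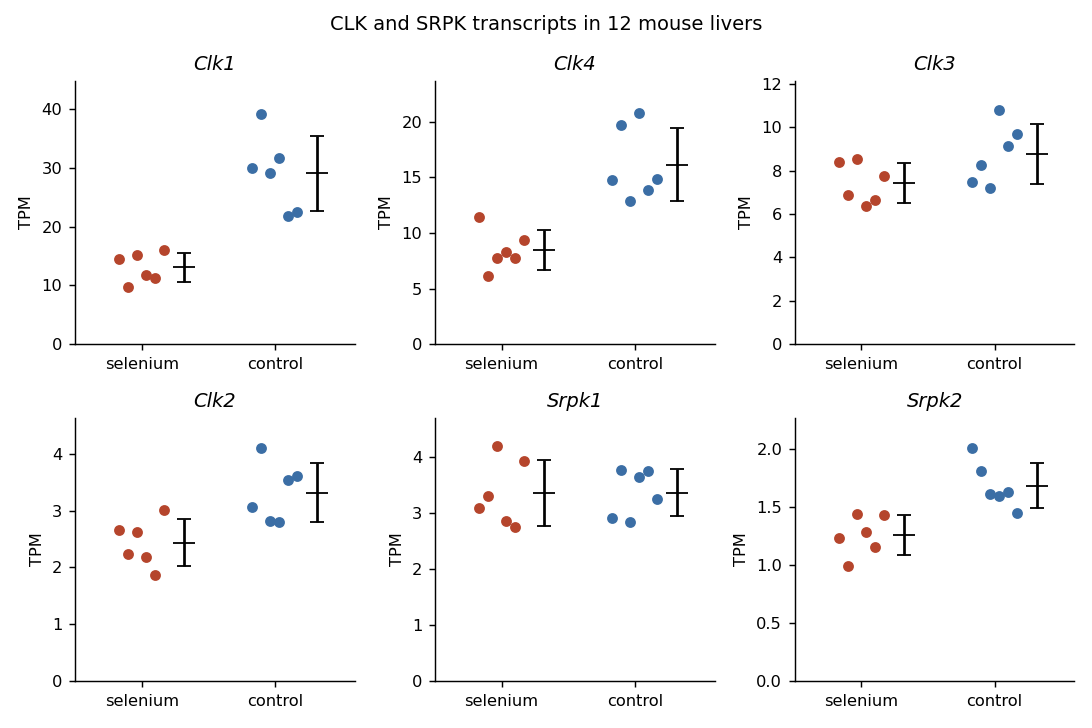
Transcript level in TPM of each kinase gene in every liver, selenium left and control right in each panel, with points in replicate order and bars for the mean and SD of 6 livers. All selenium livers sit below all control livers for Clk1, Clk4 and, by a gap between 1.44 and 1.45 TPM, Srpk2, while the groups overlap for Clk2, Clk3 and Srpk1.

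Clk3 and Clk2 encode the other nuclear kinases of the family. Clk3 (ENSMUSG00000032316) was at 8.41, 6.9, 8.54, 6.37, 6.65 and 7.76 TPM in selenium livers 1 to 6, and at 7.47, 8.28, 7.19, 10.81, 9.13 and 9.7 TPM in control livers 1 to 6. The groups overlapped, with 3 of 6 selenium livers below the lowest control liver. Its means were 7.44 ± 0.929 TPM in selenium livers and 8.76 ± 1.38 TPM in control livers (SD, n = 6 each), a log2 change of -0.21 (SE 0.12). Clk2 (ENSMUSG00000068917) was at 2.66, 2.24, 2.63, 2.19, 1.86 and 3.01 TPM in selenium livers 1 to 6, and at 3.06, 4.1, 2.81, 2.8, 3.53 and 3.6 TPM in control livers 1 to 6. For Clk2, 5 of 6 selenium livers lay below the lowest control liver and selenium liver 6 lay within the control range. Its means were 2.43 ± 0.412 TPM in selenium livers and 3.32 ± 0.516 TPM in control livers (SD, n = 6 each), a log2 change of -0.33 (SE 0.12).

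Among the SRPK genes, Srpk1 (ENSMUSG00000004865), which encodes the kinase best known for loading SR proteins for nuclear import, had 3.09, 3.31, 4.21, 2.87, 2.76 and 3.93 TPM in selenium livers 1 to 6. It had 2.92, 3.78, 2.84, 3.65, 3.76 and 3.25 TPM in control livers 1 to 6. The groups overlapped throughout, with selenium livers at both the bottom and the top of the whole range. The means were 3.36 ± 0.587 TPM in selenium livers and 3.37 ± 0.423 TPM in control livers (SD, n = 6 each), and the log2 change was -0.01 (SE 0.11). Srpk2 (ENSMUSG00000062604) encodes a kinase that has been tied in cancer cells to the splicing of lipid synthesis transcripts. Its level was 1.23, 0.99, 1.44, 1.28, 1.15 and 1.43 TPM in selenium livers 1 to 6, and 2.01, 1.81, 1.61, 1.59, 1.63 and 1.45 TPM in control livers 1 to 6. The groups did not overlap, but only just, since the highest selenium liver stood at 1.44 TPM and the lowest control liver at 1.45 TPM. Its means were 1.25 ± 0.172 TPM in selenium livers and 1.68 ± 0.197 TPM in control livers (SD, n = 6 each), a log2 change of -0.25 (SE 0.09). Srpk2 was the lowest of the 6 genes in both groups, with 11 of 12 libraries at 1 TPM or more. Srpk3, the remaining gene of the family and one known from muscle, was between 0 and 0.18 TPM in selenium livers and between 0 and 0.05 TPM in control livers and was not tested.

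In limma's fit across 9980 genes with Benjamini-Hochberg adjustment at 0.05, 2 members, Clk1 and Clk4, were past the threshold as lower and 0 as higher. Over all genes 0.311% were called lower (31) and 0.0200% higher (2). Under median-of-ratios scaling the call counts were 24 lower and 6 higher, and under quantile normalization 10 lower and 2 higher. At an unadjusted p under 0.05, 4 members were lower (Clk1, Clk4, Clk2 and Srpk2), against 11.4% of all genes lower and 7.01% higher. Selenium livers lay wholly below control livers for 3 members, against 1.47% of all genes. Since the members were picked from this contrast, these shares describe them and test nothing. All 6 log2 changes were negative, as were 54.6% of all tested genes, and that of Srpk1 turned positive under median-of-ratios scaling (0.01), under quantile normalization (0.05) and in a fit of only the 8 libraries with low Dbp (0.09). The median over all tested genes was -0.01, 0.01 and 0.06 in those 3 fits. In the main fit the members' median was -0.29, beside -0.03 over all tested genes.

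When each library was left out in turn, Clk1 was past the threshold in 12 of 12 fits. Clk4 was past it in 4 of 12, and was lost without selenium liver 2, 3, 4 or 5 or control liver 1, 2, 4 or 5. In the authors' deposited table, whose sign is turned here from control over selenium, the log2 change was -1.06 for Clk1, -0.89 for Clk4, -0.37 for Clk2, -0.34 for Clk3, -0.29 for Srpk2 and -0.01 for Srpk1. The authors' deposited table called 2 members lower, Clk1 and Clk4, at its adjusted p under 0.05, and it called 2.90% of the tested genes lower and 6.97% higher. These fits and that table use the libraries from which the members were picked. They describe how the calls depend on single libraries and on the method, and are no independent test.

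The summed CLK transcripts were lower and differently made up in selenium livers. The sum of the 4 CLK genes was 31.4 ± 5.00 TPM in selenium livers and 57.3 ± 9.26 TPM in control livers (SD, n = 6 each), with ranges of 24.96–36.98 TPM in selenium livers and 48.31–71.24 TPM in control livers. The sum of Clk1 and Clk4 was 21.5 ± 3.92 TPM in selenium livers and 45.2 ± 8.98 TPM in control livers, and that of Clk2 and Clk3 was 9.87 ± 1.27 TPM in selenium livers and 12.1 ± 1.48 TPM in control livers. Clk1 and Clk4 together therefore made up 68.3 ± 2.67% of the CLK sum in selenium livers, where the highest liver had 70.2%, and 78.5 ± 3.85% in control livers, where the lowest had 73.7%. Clk3 supplied 23.9 ± 2.24% of the sum in selenium livers and 15.6 ± 3.08% in control livers, without overlap between 21.5% and 19.2%. The share of Clk4 alone overlapped, at 26.8 ± 3.00% in selenium livers and 28.1 ± 2.29% in control livers.

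**Figure D2:**
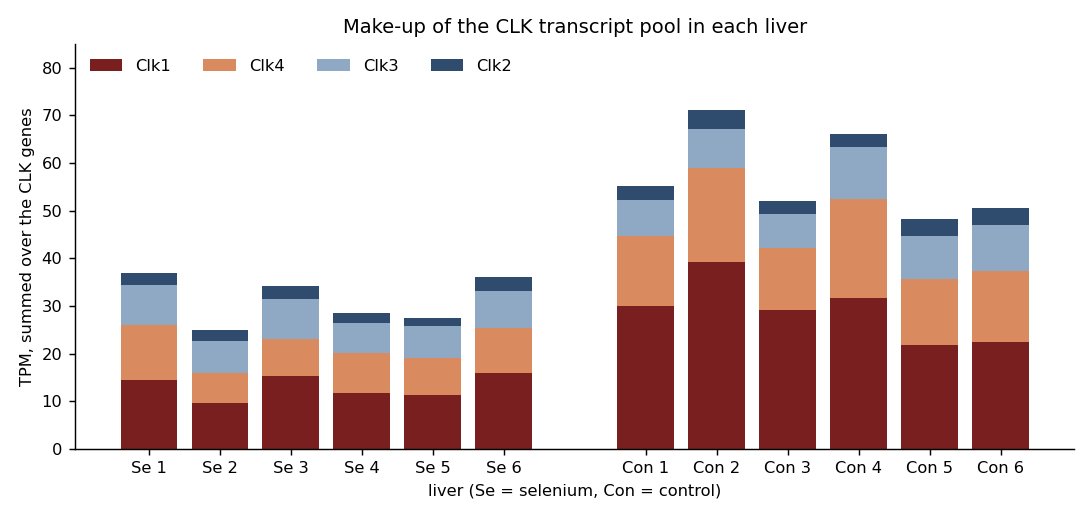
Stacked TPM of the CLK genes in each liver, selenium livers left and control livers right, from Clk1 at the bottom through Clk4 and Clk3 to Clk2 at the top. The bars reach 24.96–36.98 TPM in selenium livers and 48.31–71.24 TPM in control livers, and the difference lies mostly in the Clk1 and Clk4 segments.

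The SRPK sum, which is mostly Srpk1, was 4.62 ± 0.711 TPM in selenium livers and 5.05 ± 0.434 TPM in control livers, with overlapping ranges, although Srpk2 alone averaged 74.5% of its control mean. CLK transcripts stood at 6.85 ± 0.972 times the SRPK sum in selenium livers, the highest liver at 8.56, and at 11.3 ± 1.39 times in control livers, the lowest at 8.96 (SD, n = 6 each).

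The order of the levels was the same in both groups by group means, with Clk1 above Clk4, Clk3, Srpk1, Clk2 and Srpk2. In selenium livers Clk4 and Clk3 did not differ beyond their spread, since Clk4 was the higher in 4 of 6 livers and the log2 ratio of their TPM averaged 0.17 ± 0.26 (SD, n = 6). In control livers Clk4 was above Clk3 in 6 of 6, at a log2 ratio of 0.87 ± 0.24. Srpk1 and Clk2 were separated in selenium livers, where Srpk1 was higher in 6 of 6 at a log2 ratio of 0.47 ± 0.17. In control livers they were level, with Srpk1 higher in 3 of 6 at a log2 ratio of 0.03 ± 0.20. Every other neighbour in the order kept its place in 6 of 6 livers of both groups.

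Ratios within a liver set genes of the same library against one another. The log2 ratio of Clk1 to Clk3, each as TPM + 1, was 0.73 ± 0.17 in selenium livers and 1.61 ± 0.41 in control livers (SD, n = 6 each), and 6 of 6 selenium livers lay below the lowest control liver. That of Clk1 to Srpk1 was 1.68 ± 0.21 in selenium livers and 2.76 ± 0.33 in control livers, also with 6 of 6 below. Clk1 likewise lay lower against Clk2, at 2.03 in selenium livers and 2.78 in control livers, and against Srpk2, at 2.63 in selenium livers and 3.46 in control livers, both without overlap. The ratio of Clk1 to Clk4 was closer in the groups, at 0.58 ± 0.20 in selenium livers and 0.80 ± 0.24 in control livers, and 3 of 6 selenium livers lay below the lowest control liver. The ratios of Clk4 to Clk3 and to Srpk1 did not overlap, while those to Clk2 and to Srpk2 each had 5 of 6 selenium livers below. Pairs with neither Clk1 nor Clk4 overlapped, but to differing degrees. Clk3 to Clk2 was at 1.30 ± 0.11 in selenium livers and 1.17 ± 0.26 in control livers. Clk2 to Srpk1 was at -0.34 ± 0.13 in selenium livers and -0.02 ± 0.15 in control livers, with 4 of 6 below.

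**Figure D3:**
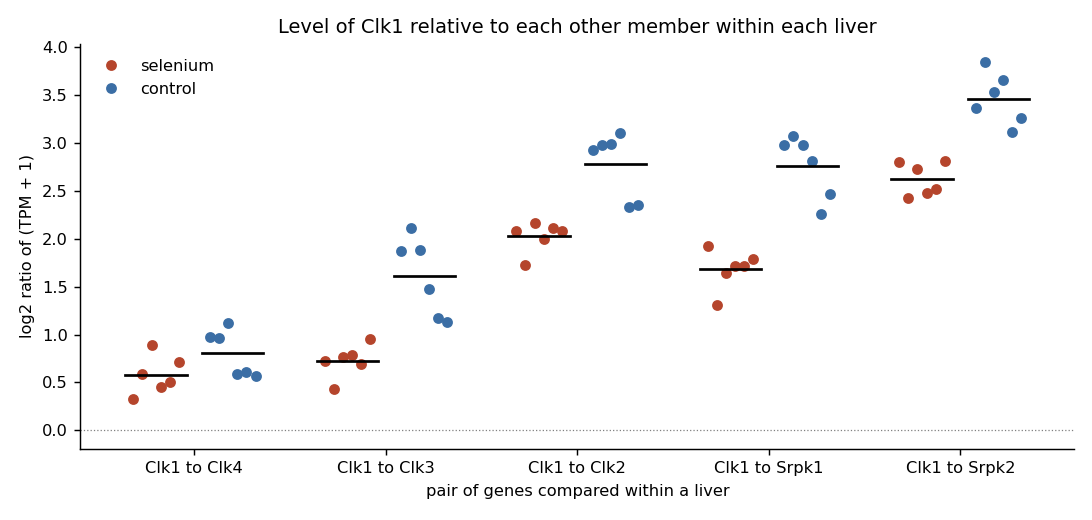
Log2 ratio of (TPM + 1) between Clk1 and each other member within a liver, selenium points left of control points in each pair, with a line for the group mean. Only the Clk1 to Clk4 ratio overlaps between the groups, and for the other pairs all selenium livers sit below all control livers.

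Within the groups, the members varied together in part. With each group's mean removed, so that the group difference plays no role, the correlation of log2(TPM + 1) over the 12 livers was 0.680 between Clk1 and Clk4 (Spearman's rho 0.720). It was 0.714 within the 6 selenium livers and 0.655 within the 6 control livers, and 0.537 when selenium liver 2 and control liver 5, the farthest from the median of Clk1, were left out. Clk1 and Srpk2 gave 0.704 over the 12 livers, with 0.897 in selenium livers and 0.537 in control livers. Clk1 and Clk3 gave 0.168, and here the groups went apart, at 0.790 in selenium livers and -0.247 in control livers, a difference that was not tested. Such values are descriptions over livers that also share the scaling of their library and its unknown depth, and 15 pairs were computed.

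**Figure D4:**
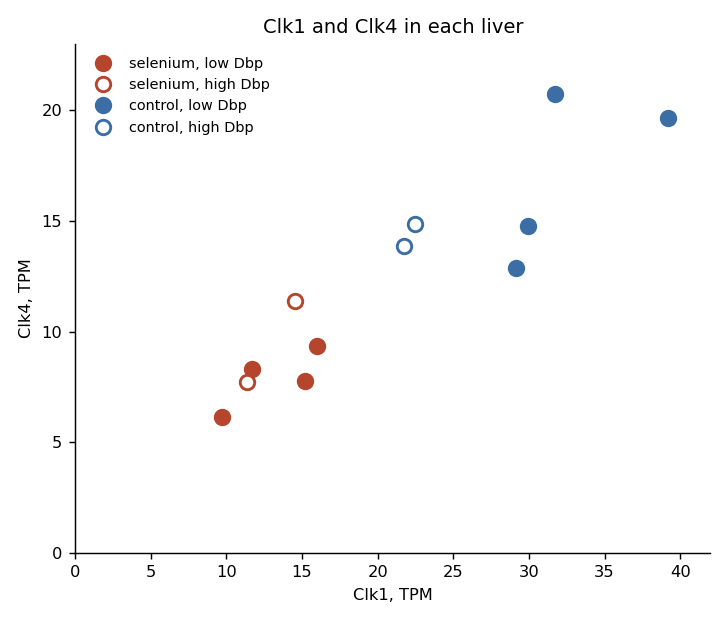
Clk1 level against Clk4 level in each liver, both in TPM, for selenium and control livers, with open circles for livers in which the clock gene Dbp was high. Selenium livers lie at the lower left, at up to 15.99 TPM of Clk1 and 11.39 TPM of Clk4, and the open control circles are the control livers lowest in Clk1.

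Likeness was ranked among 5241 genes with a mean of at least 5 TPM, leaving out predicted-gene, clone and mitochondrial-genome names. Those whose deviations followed Clk1 most closely over the 12 livers were Zscan26 (r = 0.914), Ufsp2 (r = 0.901), Luc7l3 (r = 0.896), Tardbp (r = 0.893) and Gphn (r = 0.884). Luc7l3 and Tardbp encode RNA-binding proteins of splicing. Those closest to Clk4 were Gas5 (r = 0.901), a noncoding host of small nucleolar RNAs, Zkscan3 (r = 0.894), Scrn3 (r = 0.894), Smim15 (r = 0.851) and Pex13 (r = 0.846). Zscan26 averaged 4.95 ± 1.01 TPM in selenium livers and 8.52 ± 1.13 TPM in control livers (SD, n = 6 each). Ufsp2 was level, at 15.0 ± 2.11 TPM in selenium livers and 15.0 ± 1.66 TPM in control livers, and so had no group difference like that of Clk1. These genes were picked as the highest of 5241 correlations over 12 livers, and such picking alone can give high values. Over all tested genes the median r was 0.07 with Clk1 and -0.05 with Clk4. Clk4 stood at place 117 among the genes like Clk1, and Clk1 at place 98 among those like Clk4.

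Several other measures moved with the groups or with these kinases. Dbp, a clock output gene that cycles strongly with the time of day in liver, was high in selenium livers 1 and 5 (31.45 and 53.57 TPM) and in control livers 5 and 6 (15.7 and 28.51 TPM), and between 0.72 and 1.44 TPM in the other 8. Among the livers with low Dbp, Clk1 averaged 13.2 TPM in selenium livers and 32.5 TPM in control livers (n = 4 each), a log2 change of -1.26. Among those with high Dbp it averaged 12.9 TPM in selenium livers and 22.1 TPM in control livers (n = 2 each), a log2 change of -0.74. The log2 change of Clk4 was -1.01 among livers with low Dbp and -0.56 among those with high Dbp. The selenium means were thus lower in both sets, and whether the size of the difference depended on Dbp was not tested. In a fit of only the 8 libraries with low Dbp, Clk1 and Clk4 were both past the threshold. With the first 2 components of the clock genes as covariates, neither was, and the log2 change of Clk1 was -0.79. In that fit 4 of all genes were lower, beside 31 in the main fit. Among livers with low Dbp, the second component was 0.86 to 1.65 in selenium livers and -1.36 to -0.12 in control livers. Among those with high Dbp it was -0.64 and -0.43 in selenium livers and -0.25 and 0.39 in control livers. How far this covariate takes up the group difference was not tested.

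Transcripts of the mitochondrial genome took 8.10–13.8% of all TPM in selenium livers and 13.3–22.8% in control livers, which met only in selenium liver 6 and control liver 1. With TPM rescaled without mitochondrial-encoded genes, the log2 change was -1.19 for Clk1, -0.96 for Clk4, -0.42 for Clk2, -0.30 for Clk3, -0.33 for Srpk2 and -0.08 for Srpk1, and Clk1 and Clk4 were the 2 members past the threshold. In that fit 184 of 9965 genes were lower and 6 higher. The median log2 change over all its genes was -0.11, beside -0.03 in the main fit, so the shift was not particular to the kinases. Noncoding RNAs kept in the nucleus were also measured. They were chosen with earlier results of these data known, so their p-values are descriptions and no independent test. Malat1, a long noncoding RNA of nuclear speckles, was at 5.72–11.66 TPM in selenium livers and 17.56–61.56 TPM in control livers (log2 change -1.94, SE 0.27, limma adjusted p = 0.0113). Neat1, the scaffold of paraspeckles, was at 3.29–8.69 TPM in selenium livers and 10.42–60.33 TPM in control livers (log2 change -1.82, SE 0.39, limma adjusted p = 0.0615). With group means removed, the correlation of Malat1 over the 12 livers was 0.240 with Clk1 and 0.539 with Clk4. Of the marker lists for other liver cells, no gene was past the threshold. Of the Kupffer cell markers, 6 of 6 had a positive log2 change and 0 were under an unadjusted p of 0.05. The authors' deposited table called 1 of these 6 higher, beside 6.97% of all tested genes. The summed Kupffer cell markers were at 37.77–153.76 TPM in selenium livers and 31.96–88.31 TPM in control livers, and summed stellate cell markers at 21.56–58.53 TPM in selenium livers and 41.87–76.82 TPM in control livers. Of the 4 tested stellate cell markers, 4 had a negative log2 change and 1 was lower at an unadjusted p under 0.05. This was Dcn, a matrix proteoglycan, named after its values were seen, at 28.9 ± 8.13 TPM in selenium livers and 42.1 ± 9.98 TPM in control livers (log2 change -0.55, SE 0.21, limma adjusted p = 0.190). Over all tested genes 54.6% of log2 changes were negative, and 11.4% of genes were lower and 7.01% higher at that unadjusted p. Negative changes were also seen in 2 of 2 bile duct, 2 of 2 neutrophil, 2 of 3 erythroid and 0 of 2 endothelial markers tested. No marker of these lists was at 0 in every library, and their part in the kinase values was not tested.

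The promoter windows of the kinase genes are shown for the CLK genes because Clk4 differed between the groups far more than Clk2 and Clk3. RefSeq windows on GRCm38.p6, another build than the GRCm39 of the authors' processing, were found for 5 of the 6 members, with none for Clk1, and cover 250 bases before to 50 bases after a start. Capitals mark every match, on either strand, to the motifs searched, which were the cAMP response element TGACGTCA, the E-box CACGTG, the ETS site CCGGAA, the CCAAT box CCAAT, the TATA box TATAAA, the GC box GGGCGG and the heat shock element GAANNTTC.
Clk4, chr11:51262864-51263163, + strand: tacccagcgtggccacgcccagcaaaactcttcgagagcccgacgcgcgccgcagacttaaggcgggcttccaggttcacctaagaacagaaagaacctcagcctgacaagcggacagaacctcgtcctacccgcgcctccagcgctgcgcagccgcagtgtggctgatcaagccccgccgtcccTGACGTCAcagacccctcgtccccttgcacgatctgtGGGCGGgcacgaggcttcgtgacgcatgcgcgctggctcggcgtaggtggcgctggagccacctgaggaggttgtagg
Clk3, chr9:57765065-57765364, - strand: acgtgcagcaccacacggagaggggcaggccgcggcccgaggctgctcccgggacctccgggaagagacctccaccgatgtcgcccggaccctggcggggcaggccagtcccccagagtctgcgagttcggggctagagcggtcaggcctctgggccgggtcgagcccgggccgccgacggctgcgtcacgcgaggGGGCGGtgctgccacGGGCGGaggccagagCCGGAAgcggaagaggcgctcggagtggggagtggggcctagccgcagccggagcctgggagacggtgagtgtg
Clk2, chr3:89164545-89164844, + strand: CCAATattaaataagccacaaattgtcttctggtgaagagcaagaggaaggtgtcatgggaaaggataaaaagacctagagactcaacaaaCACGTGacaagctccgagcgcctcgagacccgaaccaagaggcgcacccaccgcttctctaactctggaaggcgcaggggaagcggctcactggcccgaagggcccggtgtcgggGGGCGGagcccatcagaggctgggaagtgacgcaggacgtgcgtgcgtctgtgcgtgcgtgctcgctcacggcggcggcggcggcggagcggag
Of the 5 members with an entry, Clk4 alone held TGACGTCA, with its first base at position -65 from the start. Whether Clk1 holds it cannot be seen, for lack of a window. That motif, which reads the same on both strands, lies in 588 of 32851 windows of this length (1.79%). Clk3 held CCGGAA at -24 (in 14.9% of all windows) and Clk2 held CACGTG at -159 (in 7.15%). A GC box lay in at least 1 window of each of the 5 members with an entry, which together have 7 windows. Srpk2 has several windows, and not all of them held a GC box. Over all windows the share with a GC box was 35.7%, a figure per window and not per gene. These matches are letters in a window and say nothing of binding in these livers.

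The transcripts annotated for these genes include many that are not coding. GENCODE release M21 lists 13 transcripts of Clk1, of which 7 are retained-intron forms, 2 are marked for nonsense-mediated decay and 1 is coding. It lists 14 of Clk4, with 7 retained-intron forms, 3 marked for decay and 4 coding. Clk2 has 4 retained-intron forms among 11 transcripts, Clk3 has 4 among 9, Srpk1 has 6 among 13 and Srpk2 has 3 among 10. Among 9213 tested coding genes the median is 1 retained-intron form, and 2.75% have at least as many as Clk1 and Clk4. Genes with 4 or more such forms had a median log2 change of -0.06 (1355 genes), beside -0.01 for genes with 1 to 3 (4324 genes) and -0.02 for genes with none (3534 genes). The deposited values are per gene, so spliced and intron-keeping forms of Clk1 and Clk4 cannot be told apart in them.

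Annotated genes overlap some members on the opposite strand, and the labels do not state if reads were counted by strand, so reads of such pairs cannot be told apart. Edc3, which overlaps Clk3, was at 1.52 TPM in selenium livers and 1.47 TPM in control livers. BC049762, which overlaps Clk4, was at 0.288 TPM in selenium livers and 0.387 TPM in control livers. Kmt2e, which overlaps Srpk2, was at 2.23 TPM in selenium livers and 2.50 TPM in control livers. Clk1, Clk2 and Srpk1 overlap no other gene there.

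The substrates of these kinases come next. The gene lists here and below were chosen with earlier results of these data known. Their counts and p-values are therefore descriptions and no independent test. Of the SR proteins themselves, 10 of 11 were tested, 1 was past the threshold as lower and 0 as higher, and 10 of 10 log2 changes were negative, with a median of -0.42 beside -0.03 over all genes. That median was -0.27 in a fit of only the 8 libraries with low Dbp and -0.28 with array weights. At an unadjusted p under 0.05, 7 of 10 were lower and 0 higher, beside 11.4% of all genes lower and 7.01% higher. The authors' deposited table called 4 of them lower and 0 higher, beside 2.90% of all tested genes lower and 6.97% higher. The gene past the threshold was Srsf5, an SR protein that shuttles between nucleus and cytoplasm. It was at 35.0–52.6 TPM, with a median of 44.5 TPM, in selenium livers and at 82.49–123.71 TPM, with a median of 96.8 TPM, in control livers (log2 change -1.17, SE 0.13, limma adjusted p = 0.00331). With group means removed, the correlation of Srsf5 over the 12 livers was 0.504 with Clk1 and 0.455 with Clk4.

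Of 33 SR-related proteins, which carry arginine and serine repeats without being classic SR proteins, 2 were past the threshold as lower and 0 as higher, 27 log2 changes were negative, beside 54.6% of all genes, and the median was -0.34. That median was -0.22 without selenium liver 2 and -0.19 with array weights. At an unadjusted p under 0.05, 15 were lower and 0 higher, beside 11.4% of all genes lower and 7.01% higher. For 6, all selenium livers lay below all control livers, as for 1.47% of all genes. The authors' deposited table called 8 of them lower and 0 higher, beside 2.90% of all tested genes lower and 6.97% higher. Pnisr, which encodes a protein of nuclear speckles, averaged 3.62 ± 0.988 TPM in selenium livers and 9.08 ± 2.95 TPM in control livers (SD, n = 6 each; log2 change -1.10, SE 0.21, limma adjusted p = 0.0439). Rsrp1 averaged 40.1 ± 7.63 TPM in selenium livers and 89.7 ± 26.3 TPM in control livers (log2 change -1.10, SE 0.20, limma adjusted p = 0.0414). Leaving out selenium liver 1, 2, 3, 4 or 5 or control liver 1, 2 or 4 brought that count to 0, leaving out control liver 5 brought it to 1, and leaving out control liver 6 brought it to 5. With group means removed (n = 12), the correlation of Rsrp1 was 0.824 with Clk1 and 0.417 with Clk4. That of Pnisr was 0.413 with Clk1 and 0.699 with Clk4.

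The other lists around the kinases had 0 genes past limma's adjusted threshold in either direction. The authors' deposited table called 2 of 14 related kinases and 3 of 13 import, phosphatase and chaperone partners higher, and 0 of either list lower. It called 2.90% of all tested genes lower and 6.97% higher. At an unadjusted p under 0.05, 11.4% of all genes were lower and 7.01% higher. Of 14 tested related kinases, which include the DYRK, HIPK and PRP4 kinases, CDKs, GSK3 and the AKT kinases that act upstream of SRPK, 2 were lower and 2 higher at an unadjusted p under 0.05, and the median log2 change was 0.00. Prpf4b, a kinase of the spliceosome itself, averaged 3.68 ± 1.34 TPM in selenium livers and 7.13 ± 2.27 TPM in control livers (log2 change -0.80, SE 0.23, limma adjusted p = 0.117). Akt2, the main AKT kinase of insulin signalling in liver, averaged 21.3 ± 4.78 TPM in selenium livers and 13.6 ± 3.42 TPM in control livers (log2 change 0.62, SE 0.18, limma adjusted p = 0.115). Of 13 import receptors, phosphatase subunits and chaperones that act on SR proteins or SRPK, 0 were lower and 3 higher at an unadjusted p under 0.05, with a median of 0.14. Ppp2cb, a catalytic subunit of protein phosphatase PP2A, averaged 13.7 ± 2.01 TPM in selenium livers and 10.0 ± 2.12 TPM in control livers (log2 change 0.43, limma adjusted p = 0.142). Hsp90ab1, a chaperone, averaged 325.8 ± 59.0 TPM in selenium livers and 242.7 ± 59.0 TPM in control livers (log2 change 0.44, limma adjusted p = 0.193).

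The core of the spliceosome did not share the median of the SR proteins. Of its 39 genes, 3 were lower and 6 higher at an unadjusted p under 0.05, 15 log2 changes were negative and the median was 0.07. Over all genes 11.4% were lower and 7.01% higher at that p, and 54.6% of log2 changes were negative. The median was -0.03 in the fit with clock components as covariates, and 0.17 with only the 8 libraries low in Dbp. The median over all tested genes was -0.09 in the former fit and 0.06 in the latter. The authors' deposited table called 7 of the 39 genes higher and 0 lower, beside 6.97% of all tested genes higher and 2.90% lower. Snrpb, which encodes the common SmB protein of spliceosomal particles, averaged 21.3 ± 3.81 TPM in selenium livers and 12.9 ± 4.67 TPM in control livers (log2 change 0.73, SE 0.21, limma adjusted p = 0.116). Sf3b3, a subunit of the SF3B complex that recognises the branch point, averaged 6.07 ± 1.43 TPM in selenium livers and 4.52 ± 0.379 TPM in control livers (log2 change 0.34, limma adjusted p = 0.200). Of 11 tested genes of nonsense-mediated decay, the pathway that removes transcripts with early stop codons, 1 was lower and 0 higher at an unadjusted p under 0.05, with a median of 0.08, which was -0.04 with the clock components. The authors' deposited table called 1 of the 11 higher and 0 lower. Upf3b, which links the exon junction complex to decay, averaged 3.66 ± 1.40 TPM in selenium livers and 5.31 ± 0.944 TPM in control livers (log2 change -0.47, limma adjusted p = 0.168). Smg8, a regulator of the decay kinase SMG1, averaged 2.90 ± 0.469 TPM in selenium livers and 2.38 ± 0.526 TPM in control livers (log2 change 0.22, limma adjusted p = 0.405).

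**Figure D5:**
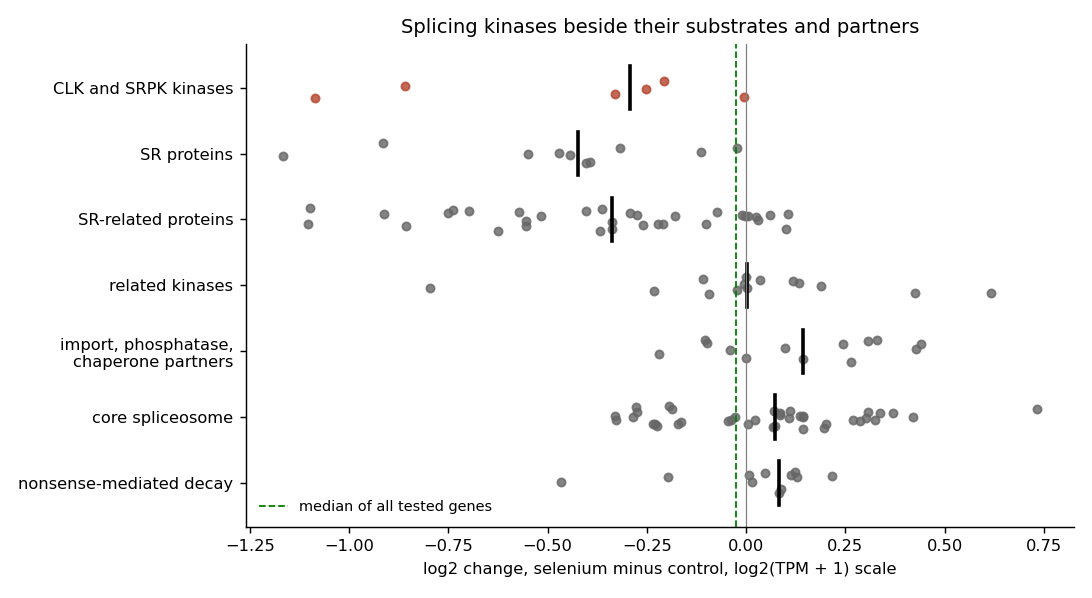
Log2 change, selenium minus control on the log2(TPM + 1) scale, of each tested gene of the kinase family and of the lists around it, with a bar for each list's median and a dashed line for the median of all 9980 genes. The medians are -0.29 for the kinases, -0.42 for the SR proteins and -0.34 for the SR-related proteins, while those of the other lists lie between 0.00 and 0.14.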

How the data were processed

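Liver RNA of 12 mice was sequenced, 1 library per mouse, and replicate numbers come from the sample titles. The submitters' processing notes name the tools HISAT2 2.1.0, RSEM 1.2.8 and DESeq2, and the build GRCm39. The authors deposited TPM per gene and library, which neither keeps depth nor shows counting error. The deposited series table also holds the authors' log2 fold change of control over selenium and the authors' p-value columns. The labels state neither poly(A) selection nor strand use.

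Genes with at least 1 TPM in 6 or more of 12 libraries were kept. Values were fitted as log2(TPM + 1) with limma 3.58.1 in R 4.3.3 (trended empirical Bayes, two-sided, no covariates), with Benjamini-Hochberg adjustment over 9980 genes and a threshold of 0.05. The pseudocount of 1 understates changes of low genes. The code was tested on simulated data. Tables and plots used pandas 2.3.3 and matplotlib 3.10.9. Likeness between genes was Pearson's r of log2 values after subtracting group means. It was ranked among genes with a mean of at least 5 TPM, leaving out predicted-gene, clone and mitochondrial-genome names.

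The members and the gene lists were chosen with earlier results of these data known. Named genes were the members, Srpk3, every gene past the threshold in a list or otherwise its 2 with the smallest p, Malat1, Neat1, Dbp, and the 5 most like Clk1 and the 5 most like Clk4. The overlapping genes Edc3, BC049762 and Kmt2e were named from the annotation. Alternatives covered pseudocounts, filters, scalings, limma settings, a replicate block, clock state and leaving out each library. As TPM is no count, no count model was fitted.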

Additional observations from a re-analysis of the deposited data

How the results depend on the processing

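Over 25 alternatives, Clk1 was past the threshold in 22 and Clk4 in 13, and no value given for a member changed from called in one direction to the other. The count of members past it was 2 and became 0 with no filter, 1 with quantile normalization, 0 with the first 2 clock components as covariates, and 1 to 2 with a library left out. The log2 change of Clk1 was -1.09 and became -0.79 with the clock components, and that of Srpk2 was -0.25 and became -0.40 with a pseudocount of 0.1, -0.16 with quantile normalization and -0.16 with the clock components. That of Clk3, -0.21, ran from -0.34 to -0.11. With the 5 TPM filter Clk2, Srpk1 and Srpk2 were not tested.

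Over all genes, 31 were lower. That count was 1 with no filter, 10 with quantile normalization, 184 without mitochondrial-encoded genes, 52 with robust empirical Bayes, 141 with array weights, 13 with only the 8 libraries low in Dbp, 4 with the clock components, and 7 (without control liver 2) to 115 (without control liver 6) with a library left out. The 2 higher genes became 1 with a pseudocount of 0.1, 0 with no filter, 1 with the 5 TPM filter, 6 with median-of-ratios scaling, 6 without mitochondrial-encoded genes, 4 with robust empirical Bayes, 114 with array weights, 34 with only the libraries low in Dbp, 0 with the clock components, and 0 to 56 with a library left out. The count of SR-related proteins called lower, 2, ran from 0 to 7. The cause of these changes was not tested.

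The labels share replicate numbers between groups and do not state whether these numbers pair the mice. Deviations of same-numbered livers correlated at -0.136 to 0.107, which cannot settle whether handling was shared. The main fit used no pairing. With a replicate block, 3 genes were lower, 0 were higher and 0 members were past the threshold. The unknown depth limits the low values of Srpk2 and Srpk3, whose counting error cannot be given.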

Other observations

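Transcripts of the pathways that CLK2 and SRPK2 are known to act on were measured beside the kinases. Of 7 tested genes of the liver program linked to CLK2, 0 were past limma's adjusted threshold, and 0 were lower and 2 higher at an unadjusted p under 0.05, with a median log2 change of -0.02. Over all tested genes 11.4% were lower and 7.01% higher at that p. The median was 0.20 with array weights, 0.12 without selenium liver 2 and 0.12 without control liver 4. The authors' deposited table called 2 of the 7 genes higher and 0 lower, beside 6.97% of all tested genes higher and 2.90% lower. Ppara, the nuclear receptor for fatty acids, averaged 8.67 ± 6.23 TPM in selenium livers and 3.59 ± 1.77 TPM in control livers (SD, n = 6 each; log2 change 0.96, SE 0.34, limma adjusted p = 0.169). Cpt1a, which carries fatty acids into mitochondrial oxidation, averaged 74.7 ± 20.9 TPM in selenium livers and 50.6 ± 10.7 TPM in control livers (log2 change 0.53, SE 0.19, limma adjusted p = 0.180). Ppargc1a, the gene for PGC-1alpha itself, was at 0.26–0.83 TPM in selenium livers and 0.57–1.33 TPM in control livers and did not pass the filter. It was named after its values were seen.

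Of 12 genes of fatty acid and sterol synthesis, 0 were past the threshold and 0 were under an unadjusted p of 0.05 in either direction, with a median log2 change of 0.19. That median was 0.09 without selenium liver 3, 0.03 without control liver 4 and -0.07 with array weights. The authors' deposited table called 0 of the 12 lower and 0 higher. Acacb, an acetyl-CoA carboxylase, averaged 2.19 ± 1.08 TPM in selenium livers and 1.31 ± 0.507 TPM in control livers (SD, n = 6 each; log2 change 0.44, limma adjusted p = 0.283). Hmgcs1, an enzyme of cholesterol synthesis, averaged 33.6 ± 10.8 TPM in selenium livers and 44.8 ± 13.4 TPM in control livers (log2 change -0.41, limma adjusted p = 0.380).

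Of 13 tested clock genes, 0 were past the threshold, and 1 was lower and 1 higher at an unadjusted p under 0.05, beside 11.4% of all genes lower and 7.01% higher. The authors' deposited table called 1 of the 13 lower and 0 higher, beside 2.90% of all tested genes lower and 6.97% higher. Cry1, a repressor of the clock, averaged 3.09 ± 0.489 TPM in selenium livers and 5.80 ± 3.55 TPM in control livers (log2 change -0.62, limma adjusted p = 0.184). Nr1d1, a repressor that cycles with the time of day, averaged 17.3 ± 9.38 TPM in selenium livers and 9.26 ± 11.9 TPM in control livers (log2 change 1.57, limma adjusted p = 0.220).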
